A study of Mus musculus with 12 samples.

Results

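Levels of 8 long non-coding RNAs were followed in mouse T blast cells with and without IL-2, before and after stimulation. Gas5, Snhg1, Snhg5, Snhg8, Snhg12 and Snhg15 are host genes whose introns carry small nucleolar RNAs (snoRNAs), and Malat1 and Neat1 are long RNAs retained in the nucleus. The 8 were taken by gene name from the 24439 gene names of the deposited files, and all 8 were among the 12442 genes that exceeded 1 TPM in at least 1 library. TPM, a level per unit of transcript length, was first set to sum to 1000000 in each library. The levels printed below were then scaled so that the upper quartile (75th percentile) was the same in every library, and no longer sum to that total. CD4 T cells were purified from the spleens of C57BL/6 mice of the C42 line, a transgenic line that carries the human IL3 and CSF2 genes, so every group had this transgene. The cells were stimulated with concanavalin A for 40 hours and, per the labels, kept for 2 days in 50 U/ml IL-2 to give actively dividing T blast cells (TB IL-2). In TB IL-2nil the IL-2 was absent for the last 16 hours of culture, so these cells had a shorter exposure to IL-2. TB+ IL-2 and TB+ IL-2nil were the same populations after 2 hours with phorbol myristate acetate and calcium ionophore (PMA/I), which together mimic signalling from the T cell receptor. Total RNA depleted of ribosomal RNA was sequenced in 3 libraries of each group, 12 in all. The labels number the replicates but do not tie them to separate mice, so P values measure the spread between these libraries.

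In a snoRNA host gene the spliced transcript is largely a by-product, while the snoRNAs cut from its introns guide the chemical modification of ribosomal RNA. Many of these transcripts begin with a run of pyrimidines, the 5′ terminal oligopyrimidine (TOP) tract that ribosomal protein mRNAs share, and are translated briefly and then destroyed by nonsense-mediated decay. Gas5 was named for its accumulation in cells whose growth had stopped. Malat1 and Neat1 lie side by side in the genome. Malat1 gathers in nuclear speckles, which store splicing factors, and Neat1 is the scaffold of paraspeckles, nuclear bodies built with the proteins Nono, Sfpq and Pspc1.

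One exchange of libraries bears on every value. The library labelled TB IL-2nil replicate 3 had 3539 TPM of Il2, the cytokine gene that PMA/I switches on, and the library labelled TB+ IL-2 replicate 3 had 0.997 TPM. Il2 ranged from 4116 to 8949 TPM in the libraries labelled TB+ IL-2nil and was at or below 4.17 TPM in the other libraries labelled as unstimulated. The study's own table of differentially expressed genes places these 2 libraries in each other's group, and all values below use that placement. Over 1391 genes that this table lists, the levels in all 12 libraries matched the column of their placed group, whereas 10 of 12 matched that of their labelled group. The placement was itself taken from this table, so the match shows which column each library corresponds to and is no separate evidence. With the labels taken literally, 0 of 40 results for the 8 RNAs passed an adjusted P of 0.05 in limma and 4 had an unadjusted P under 0.05. With both libraries left out 9 of 40 passed, and with the placement 11 of 40. This was not particular to the 8 RNAs. For IL-2 without PMA/I, 15 of all 12442 genes passed as labelled, 3994 with both left out and 4929 with the placement. The shares of all genes with the placement stand beside each comparison below.

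The deposited FPKM values summed to between 193815 and 420487 per library, of which 16.6% to 53.2% came from 1307 short RNAs, and each library was rescaled to TPM. The deposited values give no read totals. The most common ratio between libraries among genes with low values put their relative depth between 0.412 and 1.25, an indirect estimate. T cell marker genes summed to 1817 to 3484 TPM in every library, and markers of B cells, CD8 T cells, myeloid cells and NK cells to at most 31.9 TPM. The files held 5 of 6 B cell markers, which summed to 24.3 to 30.3 TPM in TB IL-2nil, 6.04 to 11.0 in TB IL-2, 2.36 to 3.69 in TB+ IL-2 and 5.66 to 13.3 in TB+ IL-2nil. All 4 NK cell markers were in the files and summed to 19.5 to 25.9, 4.13 to 4.39, 2.11 to 3.97 and 5.74 to 16.9 TPM in the same groups, with the defining marker Ncr1 listed at 0 in every library. Most of these sums was 1 gene, Klrd1, with means of 22.8, 4.28, 3.16 and 11.5 TPM. Klre1 was at 0 throughout each group but TB+ IL-2. The part of these other cell types in the results below was not tested. In bulk RNA, fewer cells of a type and less RNA per cell cannot be told apart.

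The starts of the transcripts are shown because a TOP tract is the feature that these host genes are known for. Each line gives 40 bases of RefSeq sequence on build GRCm38, 20 before the annotated start and 20 from it, with the longest pyrimidine run that reaches within 10 bases of the start in capitals.
Gas5, second annotated start, chr1:161035146-161035185, plus strand: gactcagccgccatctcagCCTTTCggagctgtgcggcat
Snhg8, chr3:123508317-123508356, minus strand: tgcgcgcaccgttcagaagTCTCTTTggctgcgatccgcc
Snhg12, chr4:132308658-132308697, plus strand: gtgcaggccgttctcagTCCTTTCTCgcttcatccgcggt
Snhg5, chr9:88522878-88522917, minus strand: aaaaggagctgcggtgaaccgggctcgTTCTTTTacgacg
Snhg1, chr19:8723467-8723506, plus strand: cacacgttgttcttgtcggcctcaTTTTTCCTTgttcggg
Snhg15, chr11:6528741-6528780, minus strand: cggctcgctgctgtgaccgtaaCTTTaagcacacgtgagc
Malat1, chr19:5802653-5802692, minus strand: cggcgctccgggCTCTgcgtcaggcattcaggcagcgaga
A C followed by at least 4 pyrimidines was found at 4 of the 8 annotated starts of 7 members, those of Gas5 (second start), Snhg5, Snhg8 and Snhg12. The same was true of 30.7% of 32851 promoters. Snhg12 and Snhg1 had the longest runs, of 9 bases, a length reached by 9.55% of promoters. Snhg15 and Malat1 had runs of 4 bases, which 63.9% of promoters matched or exceeded. The first annotated start of Gas5, not printed here, had the shortest run, of 3 bases, which 82.9% matched or exceeded.

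In the 300 bases around these starts the cyclic AMP response element TGACGTCA was found at Gas5 (second start) and Snhg15, against 1.79% of all promoters, on either strand. Snhg15 also had the E-box CACGTG, which 7.15% of promoters held. TATAAA was found at Snhg1, Snhg5 and Snhg8, against 13.6% of promoters. The motifs TTCNNNGAA, TGANTCA, CCGGAAGT, which STAT, AP-1 and ETS factors recognise, and the palindromic NRF1 motif were not among the letters of any of the 8 windows, and 8.3%, 7.81%, 3.89% and 0.971% of all promoters held them. A match describes the letters only.

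On the build that the study used, mm9, Gas5 occupied 4118 bases of chromosome 1 and spanned 9 annotated snoRNAs, the most among the members. The annotation places 8 snoRNAs within Snhg1, 4 within Snhg12, 2 within Snhg5 and 1 within Snhg15, and it has no entry for Snhg8. The members it does hold are non-coding genes, Gas5 at chr1:162964553-162968670 and Snhg1 at chr19:8797986-8800932 on the plus strand, Snhg5 at chr9:88415894-88417721 on the minus strand and Snhg12 at chr4:131864593-131866939 on the plus strand. Snhg15 (named Gm11974 there) lies at chr11:6425594-6428763, Malat1 at chr19:5795690-5802671 and Neat1 at chr19:5824708-5845478, all on the minus strand. Of the 9 in Gas5, 7 had both the box C motif (NTGATGA) and the box D motif (CTGA) that bind the snoRNP proteins. Of these 7, the first 3 along the gene and Snord47, the one that the files measured, are shown as examples of what a host gene carries, with both boxes in capitals.
SNORD74, chr1:162965525-162965604, mm9, plus strand: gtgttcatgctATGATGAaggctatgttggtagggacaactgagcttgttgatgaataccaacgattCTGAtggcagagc
SNORD24, chr1:162966188-162966270, mm9, plus strand: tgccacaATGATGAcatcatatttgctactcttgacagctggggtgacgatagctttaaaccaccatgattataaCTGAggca
SNORD44, chr1:162966813-162966872, mm9, plus strand: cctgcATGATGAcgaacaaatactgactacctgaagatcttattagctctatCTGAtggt
Snord47, chr1:162968213-162968289, mm9, plus strand: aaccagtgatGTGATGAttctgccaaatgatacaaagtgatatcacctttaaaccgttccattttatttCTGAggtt

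Malat1 was by far the most abundant of the 8 per unit length. Its mean level was 817 TPM ± 302 (SD, n = 3) in TB IL-2 and 2166 TPM ± 593 in TB IL-2nil, ranks 178 and 66 of the 12442 genes. The host genes and Neat1 had group means between 19.2 and 170 TPM. Snhg1 had the highest host gene means in all 4 groups, although in TB IL-2 its 98.3 TPM ± 32.9 lay within the spread of Gas5 at 76.2 TPM ± 35.9. Snhg15 had the lowest mean in the unstimulated groups, 27.1 TPM ± 2.69 and 19.2 TPM ± 8.91, the latter within the spread of Snhg8 at 25.6 TPM ± 7.79, and in TB+ IL-2nil it reached 125 TPM ± 19.0.

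**Figure D1:**
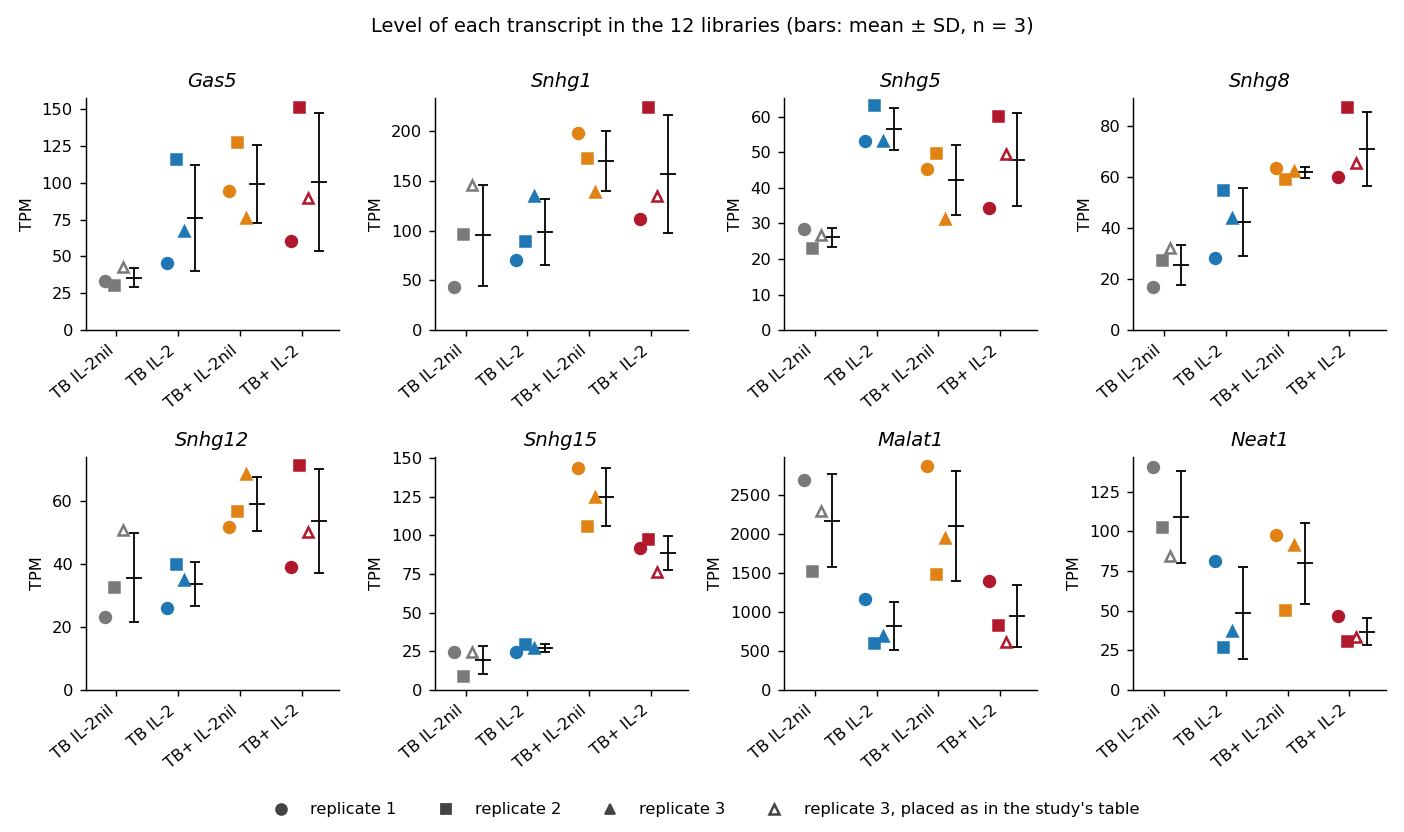
Level of each of the 8 RNAs in TPM (vertical axes, linear, 1 panel per gene) in the 12 libraries, by group. Points are libraries, open triangles are the 2 libraries placed in each other's group, and bars give mean ± SD (n = 3). Malat1 and Neat1 were higher in both IL-2nil groups, and Snhg15 was at least 76.3 TPM in all 6 PMA/I libraries and at most 29.9 TPM in the other 6.

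The first comparison asked what IL-2 withdrawal did to unstimulated T blast cells. Of the 8 RNAs, the host gene Snhg5 was higher with IL-2 and the nuclear RNAs Malat1 and Neat1 were lower. That is 1 member higher and 2 lower, where 17.3% of all genes were higher and 22.3% lower (adjusted P under 0.05, limma on log2(TPM + 1), where a fold understates the change of low genes). The median difference over all genes was -0.13 on the log2 scale.

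Snhg5, which carries the U50 family of box C/D snoRNAs, was at 53.2, 63.4 and 53.3 TPM in TB IL-2. It was at 28.4, 23.1 and 26.8 TPM in TB IL-2nil, the last of these in a placed library. Every library with IL-2 lay above every library without it. The difference was 1.09 ± 0.23 (log2, SE; 2.13-fold; 95% interval 0.59 to 1.59, adjusted P = 0.00379). Without both placed libraries it was 1.10 (adjusted P = 0.0174), and as labelled 0.80 (adjusted P = 0.420).

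Gas5 and Snhg8, the host of Snora24, had higher means with IL-2 but did not pass. Gas5 was at 45.6, 116 and 67.2 TPM in TB IL-2 and at 33.4, 30.3 and 42.9 TPM in TB IL-2nil. The groups did not overlap, but the libraries with IL-2 were widely scattered and the lowest of them lay close to the highest without. The Gas5 difference was 0.99 ± 0.38 (1.99-fold; 95% interval 0.16 to 1.82, adjusted P = 0.0572). With the replicate number as a block, which pairs same-numbered libraries, adjusted P was 0.0206, and without TB IL-2 replicate 1 it was 0.0230. Without TB IL-2 replicate 2 the difference fell to 0.64 (adjusted P = 0.215). Gas5 passed in 4 of 16 alternatives that kept the placement, with adjusted P from 0.0206 to 0.215. Snhg8 was at 28.1, 54.8 and 44.0 TPM against 17.1, 27.4 and 32.3 TPM, groups that overlapped. Its difference was 0.70 ± 0.27 (adjusted P = 0.0637), with an adjusted P of 0.0215 under the replicate block. Without TB IL-2 replicate 1 the adjusted P of Snhg8 was 0.0173, and without TB IL-2nil replicate 3 it was 0.0407. Without TB IL-2nil replicate 1 the difference fell to 0.44 (adjusted P = 0.223). Snhg8 passed in 3 of the 16, with adjusted P from 0.0173 to 0.224.

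The other host genes did not pass. Snhg15 was at 24.6, 29.9 and 26.9 TPM in TB IL-2 and at 24.2, 8.91 and 24.5 TPM in TB IL-2nil. Its groups did not overlap, but the lowest library with IL-2 (24.6 TPM) barely exceeded the highest without (24.5 TPM). The value of 8.91 TPM came from the shallowest library (relative depth 0.412). The Snhg15 difference of 0.60 had a 95% interval of -0.09 to 1.29 (adjusted P = 0.151). Snhg1, the host of Snord22 and its neighbours, was at 70.7, 89.4 and 135 TPM against 43.6, 96.2 and 145 TPM. Both groups covered nearly the same range, with a difference of 0.16 (adjusted P = 0.794). Snhg12, which carries H/ACA snoRNAs such as Snora44 and Snora16a, was at 26.1, 39.9 and 34.8 TPM against 23.1, 32.8 and 51.0 TPM, and its difference was -0.03 (adjusted P = 0.953).

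Both nuclear RNAs were lower with IL-2. Malat1 was at 1162, 600 and 688 TPM in TB IL-2 and at 2689, 1521 and 2287 TPM in TB IL-2nil. Every library without IL-2 lay above every library with it. The difference was -1.43 ± 0.37 (2.69-fold lower; 95% interval -2.23 to -0.62, adjusted P = 0.0105), and -1.37 without both placed libraries (adjusted P = 0.0302). As labelled it was -0.80 (adjusted P = 0.614).

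Neat1 was at 81.6, 27.1 and 37.2 TPM in TB IL-2 and at 141, 103 and 84.2 TPM in TB IL-2nil. The highest library with IL-2 nearly met the lowest without. The difference was -1.27 ± 0.39 (2.42-fold lower; 95% interval -2.12 to -0.42, adjusted P = 0.0227). The call was lost without TB IL-2 replicate 2 (adjusted P = 0.0942), TB IL-2 replicate 3 (0.0747), TB IL-2nil replicate 1 (0.0815) or TB IL-2nil replicate 2 (0.0513). It was also lost with no scaling beyond TPM (0.0673) and with only the 2 groups compared in the fit (0.0653). Without both placed libraries the difference was -1.45 (adjusted P = 0.0392), and as labelled -0.83 (adjusted P = 0.630).

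**Figure D2:**
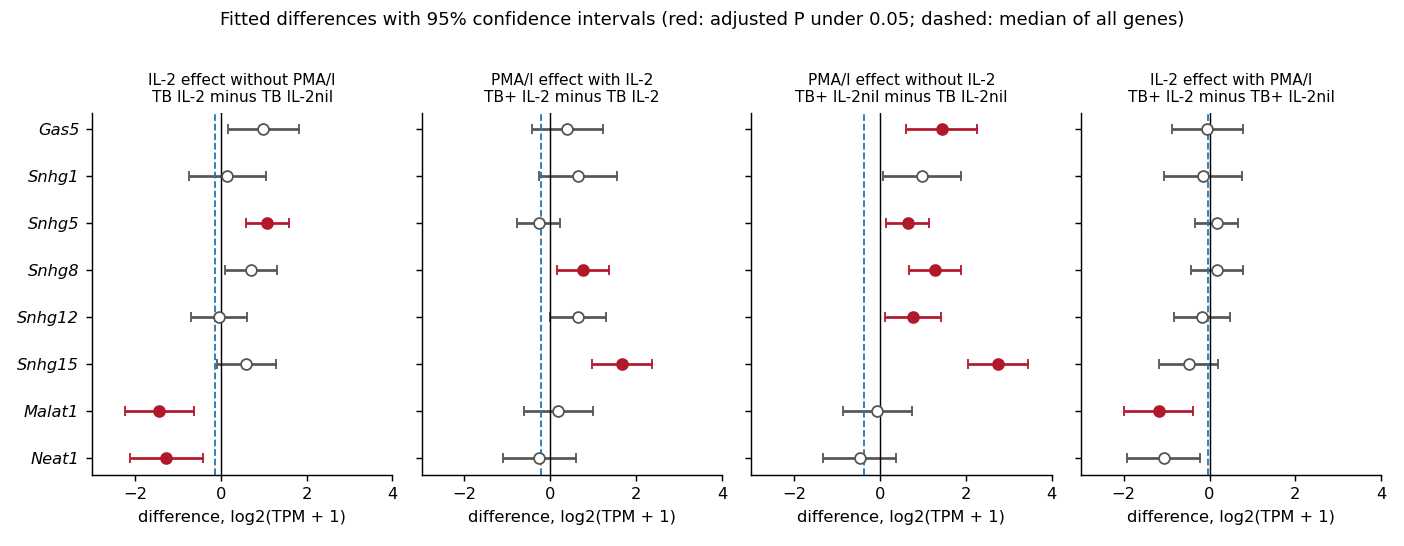
Difference in log2(TPM + 1) for each of the 8 RNAs (horizontal axis) in 4 comparisons, 1 panel each, with 95% intervals from limma over 12 libraries. The dashed line is the median of all 12442 genes. Snhg15 has the largest difference, 2.75, after PMA/I without IL-2, and Malat1 and Neat1 lie left of 0 in both IL-2 comparisons.

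The next comparisons asked how the RNAs answered 2 hours of PMA/I. With IL-2 present, the host genes Snhg15 and Snhg8 were higher after PMA/I and no member was lower. These 2 of 8 stand beside 11.8% of all genes higher and 23.3% lower. Without IL-2, 5 of the 6 host genes were higher (Gas5, Snhg5, Snhg8, Snhg12 and Snhg15) and neither nuclear RNA passed, where 20.1% of all genes were higher and 41.1% lower. Both comparisons with PMA/I have their own unstimulated group, but each shares its groups with the IL-2 comparisons. The medians over all genes were -0.22 with IL-2 and -0.38 without, and -0.29 and -0.78 with no scaling beyond TPM.

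Snhg15, the host of a single annotated snoRNA, was the only member to change by over 3-fold in either comparison. With IL-2 it stood at 91.7, 98.0 and 76.3 TPM after PMA/I, the last in a placed library, against 24.6 to 29.9 TPM before. All 3 stimulated libraries were far above the unstimulated ones, a difference of 1.67 ± 0.31 (3.18-fold; 95% interval 0.98 to 2.36, adjusted P = 0.00222). Without IL-2 it stood at 144, 106 and 125 TPM after PMA/I, against 8.91 to 24.5 TPM before. These were the highest of all 12 libraries, and the difference was 2.75 ± 0.31 (6.74-fold; 95% interval 2.06 to 3.44, adjusted P = 3.01e-05). Leaving out TB IL-2nil replicate 2, its shallowest library, gave 2.30 (adjusted P = 1.90e-05). Without both placed libraries the differences were 1.77 (adjusted P = 0.00504) with IL-2 and 2.98 (adjusted P = 0.000158) without. As labelled they were 1.14 (adjusted P = 0.502) and 2.22 (adjusted P = 0.0727).

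Snhg8 stood at 60.2, 87.6 and 65.5 TPM in TB+ IL-2 and at 63.7, 59.4 and 62.4 TPM in TB+ IL-2nil. All 6 stimulated libraries lay above all 6 unstimulated ones. Without IL-2 the difference was 1.29 ± 0.27 (2.44-fold; 95% interval 0.68 to 1.89, adjusted P = 0.00190), and 1.47 without both placed libraries (adjusted P = 0.00341). With IL-2 it was 0.77 ± 0.27 (1.70-fold; 95% interval 0.16 to 1.37, adjusted P = 0.0493), just inside the threshold. That call was lost without both placed libraries (0.82, adjusted P = 0.0717). It was lost as well with a pseudocount of 0.1, no scaling, quantile scaling or only the groups compared (adjusted P from 0.0631 to 0.112). It was also lost without any 1 of 5 single libraries, TB IL-2 replicate 1 (0.51, adjusted P = 0.182) or 3 (0.0831) and TB+ IL-2 replicate 1 (0.0646), 2 (0.168) or 3 (0.0758).

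Gas5 stood at 60.1, 151 and 89.5 TPM in TB+ IL-2 and at 94.0, 128 and 75.8 TPM in TB+ IL-2nil. Without IL-2 every stimulated library was above every unstimulated one, which reached 42.9 TPM at most. The difference was 1.44 ± 0.38 (2.71-fold; 95% interval 0.61 to 2.27, adjusted P = 0.00658), and 1.57 without both placed libraries (adjusted P = 0.0161). With IL-2 the groups overlapped widely, and the difference of 0.40 had a 95% interval of -0.44 to 1.23 (adjusted P = 0.447).

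Snhg5 stood at 34.3, 60.1 and 49.5 TPM in TB+ IL-2 and at 45.4, 49.9 and 31.2 TPM in TB+ IL-2nil. Without IL-2 all 3 stimulated libraries lay above the unstimulated ones, the nearest by a few TPM. The difference there was 0.65 ± 0.23 (1.57-fold; 95% interval 0.15 to 1.15, adjusted P = 0.0282). It was 0.11 with no scaling beyond TPM (adjusted P = 0.763), and 0.66 without both placed libraries (adjusted P = 0.0719). The call was also lost without TB IL-2nil replicate 2 (adjusted P = 0.0874) or 3 (0.0555) and without TB+ IL-2nil replicate 1 (0.0815) or 2 (0.102). With IL-2 the difference was -0.27 (95% interval -0.77 to 0.24, adjusted P = 0.394).

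Snhg12 and Snhg1 had higher means after PMA/I in both settings. Snhg12 stood at 39.0, 71.5 and 50.3 TPM in TB+ IL-2 and at 51.9, 56.9 and 68.7 TPM in TB+ IL-2nil. Without IL-2 the lowest stimulated library stood just above the highest unstimulated one, and the difference was 0.78 ± 0.30 (1.72-fold; 95% interval 0.12 to 1.43, adjusted P = 0.0401). It was 0.24 with no scaling beyond TPM (adjusted P = 0.538), and the call was lost too with quantile scaling (0.0876) and with only the groups compared (0.0653). The call was lost without TB IL-2nil replicate 1 (0.51, adjusted P = 0.159) or 2 (0.0882) and without TB+ IL-2nil replicate 1 (0.0533), 2 (0.0740) or 3 (0.112). With IL-2 the Snhg12 difference was 0.64 (95% interval -0.02 to 1.29, adjusted P = 0.120), with an adjusted P of 0.0334 under the replicate block.

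Snhg1 stood at 112, 224 and 134 TPM in TB+ IL-2 and at 198, 173 and 138 TPM in TB+ IL-2nil. Its groups overlapped both with and without IL-2. Without IL-2 the difference was 0.97 ± 0.41 (1.96-fold; 95% interval 0.07 to 1.88, adjusted P = 0.0598). It passed under the replicate block (adjusted P = 0.0391), without both placed libraries (1.35, adjusted P = 0.0219), and without TB IL-2nil replicate 3 alone (adjusted P = 0.0155). It was 0.50 without TB IL-2nil replicate 1 (adjusted P = 0.245), 0.42 with no scaling beyond TPM (adjusted P = 0.329) and 0.62 with quantile scaling (adjusted P = 0.229), and it passed in 4 of 16 alternatives. With IL-2 it was 0.65 (95% interval -0.25 to 1.56, adjusted P = 0.243).

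Malat1 and Neat1 gave no call after PMA/I. Malat1 stood at 1392, 830 and 615 TPM in TB+ IL-2 and at 2860, 1485 and 1949 TPM in TB+ IL-2nil, and each range overlapped that of its unstimulated group. The differences were 0.19 with IL-2 (95% interval -0.62 to 0.99, adjusted P = 0.724) and -0.06 without (95% interval -0.86 to 0.75, adjusted P = 0.902). Neat1 stood at 46.6, 30.6 and 33.1 TPM in TB+ IL-2 and at 97.6, 50.7 and 91.1 TPM in TB+ IL-2nil. Its ranges overlapped too, with differences of -0.26 (95% interval -1.11 to 0.59, adjusted P = 0.633) and -0.47 (95% interval -1.32 to 0.38, adjusted P = 0.308). These intervals still allow changes of over 1 on the log2 scale in Neat1.

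Within the stimulated cells, IL-2 was set against no IL-2. Malat1 was the 1 member that passed, and it was lower with IL-2, where 12.9% of all genes were higher and 8.4% lower. All 3 libraries without IL-2 lay above all 3 with it, the difference being -1.18 ± 0.37 (2.27-fold lower; 95% interval -1.99 to -0.37, adjusted P = 0.0418). The call was lost without both placed libraries (-0.91, adjusted P = 0.188), without TB+ IL-2 replicate 2 (0.106) or 3 (0.157), and without TB+ IL-2nil replicate 1 (0.154) or 3 (0.0758). It was also lost with no scaling (a difference of -0.78), quantile scaling (adjusted P = 0.174), no filter (0.0679), a pseudocount of 0.1 (0.0540) and only the groups compared (0.0901). Neat1 also had no overlap between its groups, and its difference of -1.06 ± 0.39 (2.09-fold lower; 95% interval -1.91 to -0.21) had an adjusted P of 0.0734. Neat1 passed under the replicate block (adjusted P = 0.00929) and without TB+ IL-2nil replicate 2 (0.0399), 2 of 16 alternatives. With no scaling beyond TPM it was -0.67 (adjusted P = 0.470).

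None of the 6 host genes passed in that comparison. Snhg15 was lower with IL-2 in all 3 libraries, by -0.49 (95% interval -1.18 to 0.20, adjusted P = 0.296). The differences of the other 5 lay between -0.17 and 0.18, with adjusted P from 0.633 to 0.945. For Gas5, at -0.05, Snhg1, at -0.16, and Snhg12, at -0.17, the sign turned with no scaling beyond TPM.

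The last fit asked whether the PMA/I response differed with IL-2. In limma 0 of the 8 RNAs passed this interaction, where 1.57% of all genes passed with a higher value and 2.66% with a lower one. An unadjusted P under 0.05 was found for 2875 of all 12442 genes and for 2 of the 8 RNAs. Those 2 were Snhg5, with an interaction of -0.92 ± 0.32 (95% interval -1.63 to -0.21, adjusted P = 0.125), and Snhg15, with -1.08 ± 0.44 (95% interval -2.06 to -0.11, adjusted P = 0.175). Gas5 was at -1.04 (95% interval -2.22 to 0.13, adjusted P = 0.269) and Snhg8 at -0.52 (adjusted P = 0.455). Snhg5 passed without TB+ IL-2nil replicate 3 (-1.11, adjusted P = 0.0448).

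**Figure D3:**
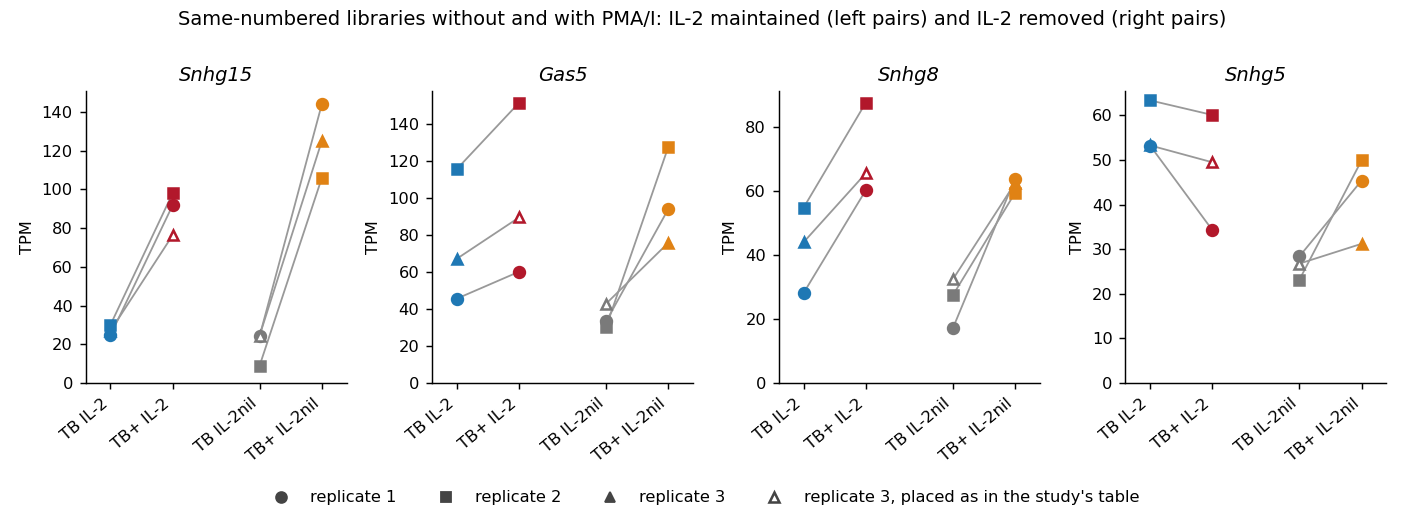
Levels of Snhg15, Gas5, Snhg8 and Snhg5 in TPM (vertical axes) before and after PMA/I, with lines joining libraries of the same replicate number, with IL-2 and without. Snhg5 is lower after PMA/I in 3 of 3 pairs with IL-2 and higher in 3 of 3 without, and Snhg15 is higher in all 6.

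The members did not move as 1 group. Over the 12 libraries, Pearson correlation of log2(TPM + 1) was 0.89 between Malat1 and Neat1, 0.88 between Gas5 and Snhg8 and 0.88 between Snhg1 and Snhg12. Snhg5 stood nearer to Gas5 (0.78) than to Snhg1 (0.31) or Snhg12 (0.21). Neat1 ran against Snhg5 (-0.75) and Gas5 (-0.72). These are descriptions over 12 libraries that share groups, depth and scaling. Malat1 exceeded Neat1 by 14.2 to 29.9 times in TPM (median 21.7). Malat1 and Neat1 were highest in replicate 1 of all 4 groups, and Snhg12 was lowest there.

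**Figure D4:**
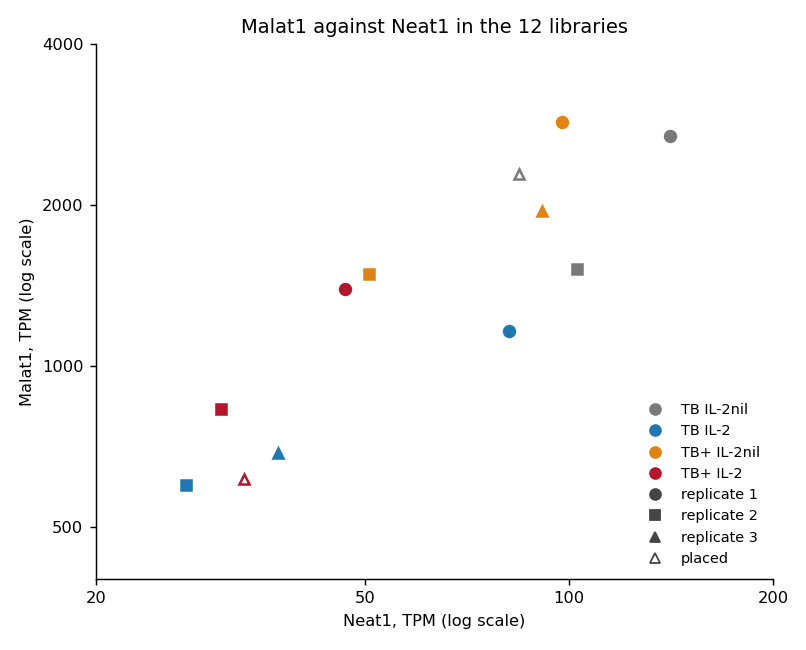
Malat1 (vertical axis) against Neat1 (horizontal axis) in TPM in the 12 libraries (both axes log scale), coloured by group, with open triangles for the 2 placed libraries. The libraries without IL-2 lie at the top, at 1485 TPM of Malat1 or more. On the Neat1 axis they are not set apart, as TB+ IL-2nil replicate 2 (50.7 TPM) lies below TB IL-2 replicate 1 (81.6 TPM). The ratio of Malat1 to Neat1 stays between 14.2 and 29.9.

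Among 7224 genes with a mean over 10 TPM, the genes whose levels ran closest to each member were found by the same correlation. For Snhg5 they were Dbr1 (0.97), the enzyme that opens intron lariats, Cul2 (0.97) and Ppm1g (0.97). For Snhg8 they were Taf1d (0.97), a factor of RNA polymerase I, Pam16 (0.96) and Ezr (0.96). For Snhg15 they were 2410002F23Rik (0.98), Tespa1 (0.98) and Gm13363 (0.97). For Gas5 they were Capza2, Serbp1 and Rpf2 (0.96 each), and for Snhg12 Ube2d3 (0.95), Dph3 (0.91) and Ufm1 (0.91). Snhg1 had the weakest neighbours, Papd4, Ufm1 and Rpl15 (0.88 each). Malat1 ran closest to Trim39 (0.97), Rabgap1l (0.96) and Elk3 (0.95), and Neat1 to Btbd6, Tsc1 and Ikbkb (0.96 each).

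Genes that touch a member in the genome were set beside it. Zbtb37, a zinc finger gene, lies antisense to Gas5 and shares 428 bases with it, and the strand setting used in counting was not stated, so reads in the shared stretch cannot be told apart. In limma Zbtb37 had -0.99 for IL-2 without PMA/I (adjusted P = 0.00686), -1.28 for PMA/I with IL-2 (0.00181) and -1.60 for PMA/I without IL-2 (0.000146). Gas5 had 0.99, 0.40 and 1.44 there, of which only the last passed. For IL-2 after PMA/I both were negative, -0.66 for Zbtb37 (adjusted P = 0.0648) and -0.05 for Gas5, and neither passed. Slc3a2, an amino acid transporter subunit, starts 127 bases from Snhg1 on the other strand. It was higher after PMA/I by 1.46 with IL-2 (adjusted P = 0.000856) and by 2.56 without (adjusted P = 7.70e-06), where Snhg1 had 0.65 and 0.97. Gm20417 overlaps Malat1 antisense over 988 bases. Trnau1ap, 739 bases from Snhg12, passed in no comparison.

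Lists of related genes give the setting of the members. As labelled, 0 of 635 list results over the 5 fits passed in limma. Of all 12442 genes, 15, 62, 669, 27 and 0 passed in those fits, in the order used above. An unadjusted P under 0.05 in limma was found for 69 of the 635, and the matching share of all genes was not counted. The other host genes without a protein product had 11 of 17 listed names above the floor. Of these, 4 were higher and 0 lower after PMA/I with IL-2 (median 0.46), where 11.8% of all genes were higher and 23.3% lower. Without IL-2, 5 were higher and 0 lower (median 0.88, all genes -0.38, of which 20.1% were higher and 41.1% lower). Dancr rose from 8.07 TPM ± 1.51 to 60.7 TPM ± 9.84 without IL-2 (2.77, adjusted P = 7.57e-06), and Snhg17 and Snhg4 rose by 1.97 and 1.87. For IL-2 without PMA/I, where 17.3% of all genes were higher and 22.3% lower, 3 were higher, such as Snhg3 (1.17, adjusted P = 0.0127), and 2 lower. The 2 were Zfas1, at 66.8 TPM ± 19.98 with IL-2 and 193 TPM ± 48.6 without (-1.53, adjusted P = 0.00420), and Epb41l4aos (-1.42), and both were also lower with IL-2 after PMA/I (-1.11 and -1.21). Host genes lay on both sides of the IL-2 comparison, with Snhg5 on one and Zfas1 on the other.

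Of 26 host genes that encode proteins, 7 were higher and 0 lower after PMA/I without IL-2 (median 0.31), where 20.1% of all genes were higher. The 7 included Nop56, itself a snoRNP protein, with 3.32 (adjusted P = 2.57e-06). The snoRNP core and assembly proteins were higher in 15 of 18 and lower in 1 in that comparison (median 2.26). They were higher with IL-2 before PMA/I in 18 of 18 (median 1.48), against 17.3% of all genes. Nop58 rose by 3.50 and Nolc1 by 3.94 after PMA/I without IL-2, more than any of the 8 members. Nop56, Nop58 and Nolc1 also passed the interaction (-2.37, -2.40 and -2.43), and 8 of the 18 did so with a lower value, against 2.66% of all genes. Of 17 translation factors with TOP mRNAs, 11 were higher after PMA/I without IL-2 (median 0.51), Npm1 by 1.39. Of 10 nonsense-mediated decay factors, 4 were higher and 4 lower there, against 20.1% and 41.1% of all genes, and 4 were lower with IL-2 before PMA/I, against 22.3%, with Smg1 at -0.80 (adjusted P = 0.0112).

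**Figure D5:**
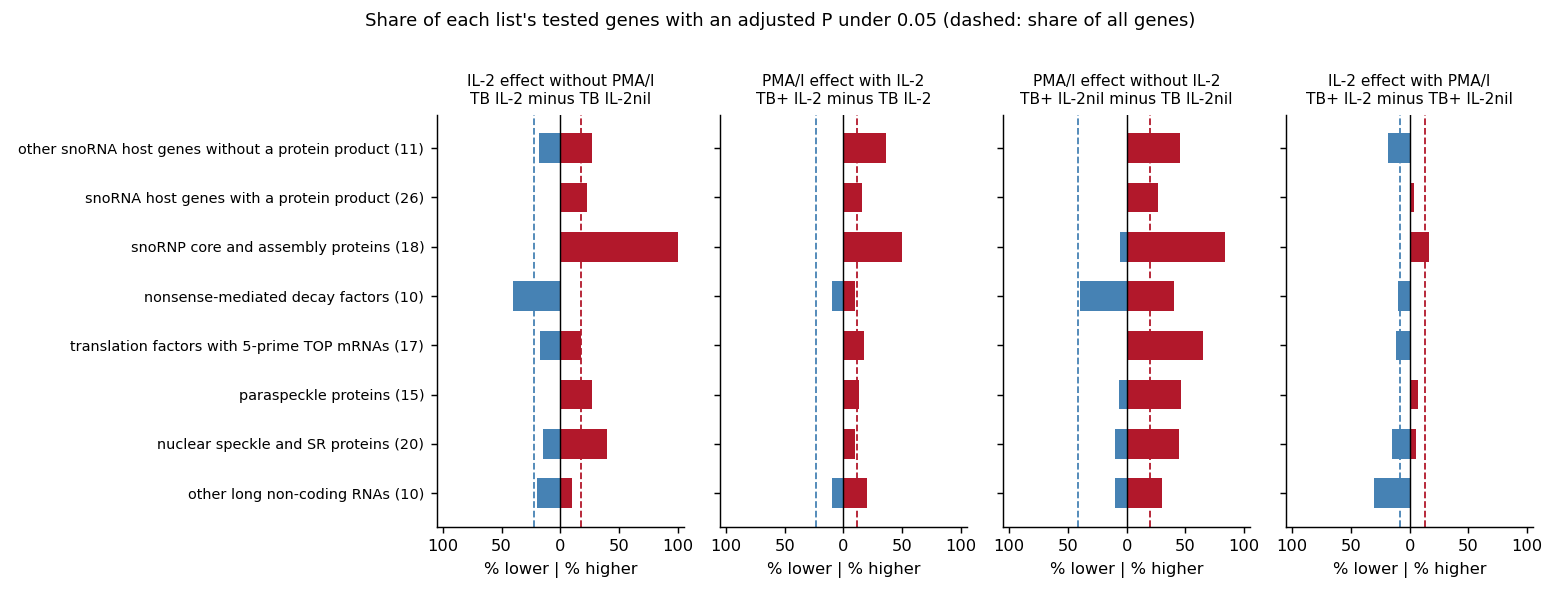
Share of the tested genes of each list (percent, horizontal axis) that passed with a higher or a lower value in each comparison, with the share over all 12442 genes dashed. Among the snoRNP proteins 18 of 18 were higher with IL-2 before PMA/I.

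For Malat1 and Neat1 the setting was that of their nuclear bodies. Of 15 paraspeckle proteins, 4 were higher, 0 lower and 11 did not pass with IL-2 before PMA/I, where 17.3% of all genes were higher, with Dazap1, an RNA-binding protein, at 0.69 (adjusted P = 0.00729). Of 20 nuclear speckle and SR proteins, 8 were higher and 3 lower in the same comparison, where 22.3% of all genes were lower. Srsf2 was higher by 1.85 (adjusted P = 6.67e-05), while Clk1, a kinase of SR proteins, was lower like Malat1, at 72.7 TPM ± 10.9 with IL-2 and 249 TPM ± 30.8 without (-1.77, adjusted P = 0.000498). Of 10 other long non-coding RNAs, 1 was higher and 2, Lncpint (-1.92, adjusted P = 0.0119) and Tug1, were lower. Mir17hg, the host of a microRNA cluster, was higher by 1.37 and rose by 4.81 after PMA/I without IL-2 (adjusted P = 7.72e-07), from 8.34 TPM ± 4.14 to 251 TPM ± 61.4. After PMA/I Mir17hg was lower with IL-2 (-1.58, adjusted P = 0.00426), and it passed the interaction in limma (-2.95, adjusted P = 0.0116). For Tug1 the IL-2 differences were -0.88 (adjusted P = 0.00139) before PMA/I and -0.83 (adjusted P = 0.00381) after it, on the same side as those of Malat1 and Neat1.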

How the data were processed

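Per the labels and the study's methods, the authors used Trimmomatic (0.32) to trim reads, HISAT2 (2.1.0) to align them to mm9 and StringTie (1.3.3) to quantify genes, and deposited FPKM per library. FPKM values were converted to TPM by setting every library's total to 1000000. The 12442 genes whose highest TPM exceeded 1 were scaled by the upper quartile (75th percentile) and tested as log2(TPM + 1) in limma (3.58.1, R 4.3.3), with 12 libraries in 1 fit by placed group (8 residual degrees of freedom) and Benjamini-Hochberg adjustment over all genes. The methods give TPM values with a 3-fold limit, counted here beside the adjusted P of 0.05. FPKM carries no read totals, so counting error is unknown. Same-numbered libraries deviated together from their group means (18 of 18 correlations over 0.1, from 0.101 to 0.531), so a fit with the replicate block was run. Under it 16 of 40 member results passed against 11, and for IL-2 without PMA/I 6322 of all genes passed against 4929. Named genes were the 8 members, Il2, the nearest genes by correlation, hosted snoRNAs, genomic neighbours (chosen after values were seen), and at most 3 passing genes with the largest change per list and comparison. Members and lists were chosen with earlier results of these data known. Scripts were tested on simulated data. Figures used matplotlib (3.10.9). The promoters came from RefSeq, where Neat1 was not matched.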

Additional observations from a re-analysis of the deposited data

Results flagged for a closer look

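Snhg5 differed in direction between IL-2 settings. Same-numbered libraries showed less Snhg5 after PMA/I in 3 of 3 pairs with IL-2 (log2 differences from -0.62 to -0.08) and more in 3 of 3 without IL-2 (0.21 to 1.08). The test of that difference gave -0.92 (unadjusted P = 0.0160 in limma, adjusted P = 0.125), which does not pass. In the same test 2875 of all 12442 genes had an unadjusted P under 0.05.

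Snhg15 differed likewise for IL-2. It was higher with IL-2 in 3 of 3 pairs before PMA/I (0.02 to 1.64) and lower in 3 of 3 after it (-0.70 to -0.11). The test of that difference gave -1.08 (unadjusted P = 0.0325 in limma, adjusted P = 0.175), which does not pass. The largest of the 6 pair differences came from the shallowest library, TB IL-2nil replicate 2.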

How the results depend on the processing

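Of the 11 member results that passed, 6 did so in every alternative that kept the placement of the libraries (Snhg5 and Malat1 for IL-2 before PMA/I, Snhg15 for PMA/I with IL-2, and Gas5, Snhg8 and Snhg15 for PMA/I without IL-2), and none changed sign in any setting. As labelled, 0 members passed in the 4 group comparisons. For IL-2 before PMA/I, 5 members passed with the replicate block against 3, 4 with quantile scaling and with trend and robust settings (Gas5 gained, adjusted P = 0.0389 and 0.0485), and 2 with no scaling and with only the groups compared (Neat1 lost). For PMA/I with IL-2, 1 passed against 2 without both placed libraries, with a pseudocount of 0.1, with no scaling beyond TPM, with quantile scaling and with only the groups compared. For PMA/I without IL-2, 3 passed against 5 with no scaling, and Snhg12 was lost with quantile scaling and with only the groups compared. For IL-2 after PMA/I, 0 passed against 1 without both placed libraries, with the other pseudocount, with no filter, with no scaling, with quantile scaling and with only the groups compared, and 2 passed with the block. Apart from the calls gained that are given beside the results, the replicate block changed no other call. Leaving out 1 library gave 2 to 5, 1 to 2, 3 to 5 and 0 to 2 members in the 4 comparisons and 0 to 1 for the interaction.

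Genes passing over all were 4929, 4372, 7614, 2644 and 526 in the 5 fits. As labelled they were 15, 62, 669, 27 and 0. With no scaling they were 2650 for IL-2 before PMA/I, 2434 for PMA/I with IL-2, 1486 for IL-2 after PMA/I and 1 for the interaction. For IL-2 after PMA/I they were 1200 without both placed libraries, 4186 with the block and 1503 with only the groups compared. For the interaction they were 4, 1478 and, with the other pseudocount, 241, and leaving out 1 library gave 84 to 1302.

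Signs turned only for results that had not passed. These were Snhg12 for IL-2 before PMA/I (0.25 without both placed libraries, 0.010 with no filter), Neat1 (0.18 as labelled) and Malat1 (-0.013 with quantile scaling) for PMA/I with IL-2, and Malat1 for PMA/I without IL-2 (0.57 as labelled, 0.14 with no filter). For IL-2 after PMA/I they were Snhg5 and Snhg8 (-0.12 and -0.15 as labelled) and, with no scaling, Gas5, Snhg1 and Snhg12 (0.34, 0.23 and 0.21), and for the interaction Snhg1 and Snhg12 with no scaling (0.15 and 0.32). Leaving out 1 library gave, for IL-2 before PMA/I, -0.30 to 0.25 for Snhg12 and -0.31 to 0.54 for Snhg1. It gave -0.59 to 0.18 for Neat1 and -0.13 to 0.47 for Malat1 for PMA/I with IL-2, and -0.31 to 0.16 for Malat1 without IL-2. For IL-2 after PMA/I it gave -0.40 to 0.26 for Gas5, -0.45 to 0.047 for Snhg1, -0.40 to 0.028 for Snhg12 and -0.026 to 0.39 for Snhg5, and for the interaction -0.12 to 0.66 for Neat1, -0.70 to 0.16 for Snhg1, -0.43 to 0.13 for Snhg12 and -0.073 to 0.54 for Malat1. The causes were not tested.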

Other observations

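The hosted snoRNAs gave no calls. Of 24 annotated snoRNAs inside the host genes, 6 were in the files and 5 were above the floor. Of their 25 results in limma, 0 passed and 0 had an unadjusted P under 0.05. Snora24, which RefSeq places inside Snhg8, gave 5 results, of which 0 passed and 1 had an unadjusted P under 0.05 (-6.03 ± 2.43 on the log2 scale, SE, for IL-2 after PMA/I, adjusted P = 0.102). Its levels were widely scattered, at 0.0108, 1127 and 7.27e-05 TPM in TB+ IL-2 and at 2017, 2211 and 71.0 TPM in TB+ IL-2nil. Snord47, carried by Gas5, was listed at 0 in replicate 1 of all 4 groups and lay between 6196 and 30507 TPM in the other 8 libraries. Snord22, carried by Snhg1, lay between 2695 and 23904 TPM, and Snora44, carried by Snhg12, between 685 and 10727 TPM. Snora61, also of Snhg12, was above 0 in 1 of 12 libraries, and Snord99 and Mascrna, the small RNA cut from the end of Malat1, were listed at 0 in all 12. Exons of annotated host transcripts overlapped Snord22 in 2 of 2 transcripts of Snhg1 and Snord47 in 2 of 25 of Gas5. For Snhg12 they overlapped Snora44 in 2 of 6 and Snora16a in 0 of 6. Whether snoRNA reads entered the host gene levels was not tested.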
